A study of Homo sapiens with 8 samples.

Results

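The set described here is made up of the long retained introns, that is, every intron of at least 1000 nt for which a retained intron event was tabulated in U2OS cells. It was chosen by length alone, from the event coordinates, and each intron was taken once. It held 535 introns in 468 genes, out of 3812 retained introns of all lengths. Of the long introns, 525 had an event in the whole-cell table, 233 had one in the cytoplasmic table and 223 had one in both.

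The study asked how CHERP, a nuclear protein that associates with the U2 snRNP of the spliceosome, affects splicing. U2OS, a human osteosarcoma cell line, was transfected for 48 h with 20 nM of a single siRNA against CHERP (CHERP#2) or of an siRNA against EGFP, a control gene that the cells do not carry. Whole-cell RNA and RNA of the cytoplasmic fraction, the supernatant of a detergent lysis, were sequenced as stranded mRNA libraries, with 2 libraries in each of the 4 groups. The cells carried no other named genetic change, and all results on CHERP rest on that 1 siRNA.

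An intron that stays in an otherwise finished mRNA is called retained. Such transcripts are often held in the nucleus, where the intron may be removed later (a detained intron), and those that reach the cytoplasm can be degraded when the intron brings in an early stop codon. Retained introns are known to be typically short and rich in G and C, and genes of RNA-binding and splicing proteins are known hosts of long detained ones.

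Reads over all splicing events came to 29409956 to 35664568 per whole-cell library and 5370756 to 6580099 per cytoplasmic library. Those on the long introns came to 225601 to 281053 and 24039 to 28417. The targeted gene went with the labels: CHERP had 103 and 77 reads in the whole-cell EGFP libraries and 3 and 10 with CHERP siRNA, a log2 fold change of -3.46 ± 0.61 (SE, limma adjusted p = 0.0215), and 31 and 21 against 3 and 4 reads in the cytoplasm. Of 10 mesenchymal markers, 6 could be tested, among them VIM and FN1, but COL1A1, COL1A2, SPARC and RUNX2 could not. Of 5 epithelial markers only KRT8 could, and none of 4 blood cell markers. Gene levels were taken from cassette exon and alternative splice site events. A gene can thus go untested for lack of such events as well as for lack of reads. The summed level of the 6 mesenchymal markers was 321 to 326 (reads per nucleotide, scaled) in the whole-cell EGFP libraries and 406 to 421 in the CHERP libraries, and that of KRT8 was 38.6 to 51.7 against 30.5 to 31.1. Their part in the results was not tested.

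The inclusion level of an intron is given in percent. It sets the reads of the intron body and its exon junctions, per nucleotide of effective length, against the reads that cross exactly this pair of splice sites, so an exon inside the intron adds to the level of the intron around it. Members that share one end also share body reads: 86 of the 535 overlapped another one, and CAPRIN2 alone held 4.

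Splice sites are shown for the 6 largest rises and the 6 largest falls in level among the introns called after CHERP siRNA in whole cells, since the results below turn on them. For each, the 5′ site covers the last 3 exon and first 6 intron bases and the 3′ site the last 20 intron and first 3 exon bases, 5′ to 3′ on the strand of the gene, with the intron's terminal dinucleotides in capitals. Sequences are from GRCh37, the build (hg19) of the event coordinates.
RSRP1 5′ site: gaaGTaagt
RSRP1 3′ site: ctttttcttaacctgtctAGctg
OGT 5′ site: aagGTaggt
OGT 3′ site: tttcattaacccctcctaAGgca
RBM25 5′ site: aagGTagta
RBM25 3′ site: gtgcttttattggtttctAGaaa
CHTOP 5′ site: gcgGTgagg
CHTOP 3′ site: cattttgttcgaccttgaAGctt
RBM39 5′ site: aagGTgaga
RBM39 3′ site: cttctatcaaccctgcttAGgat
CD46 5′ site: aagGTacaa
CD46 3′ site: aatcaaacttatttttctAGgtc
CAPRIN2 5′ site: ctgGTaaga
CAPRIN2 3′ site: ctaaaatcgtttttcttaAGcag
TMEM41B 5′ site: cagGTgcat
TMEM41B 3′ site: tttttttttgttaatggtAGctg
TAMM41 5′ site: tagGTacgt
TAMM41 3′ site: ttttggtttttttctcgcAGggc
YBX3 5′ site: aatGTacgt
YBX3 3′ site: ctgtttctttgcttcgctAGtac
PTPRN 5′ site: gagGTcagc
PTPRN 3′ site: cctgggcccctgccgggcAGgtg
SFT2D1 5′ site: ctgGTaagt
SFT2D1 3′ site: tgcttgaatatttcttgcAGgta

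All 12 introns shown begin with GT and end with AG, as did 518 of the 535 long introns (96.8%), while 16 were GC-AG. In score, the log2 odds of a site under the base frequencies of introns beside cassette exons against equal base frequencies, the 5′ sites shown ran from 5.27 for CD46 to 10.8 for SFT2D1. The lowest 3′ site score among them was -0.48, for PTPRN, and the highest was 15.5, for TAMM41. Both of these are introns that fell, while the 3′ scores of the rises shown ran from 4.86 for RBM39 to 9.69 for RBM25. That narrower range holds only for the rises shown. Among the called rises not shown, the 3′ score was 1.18 for CEP95, 3.74 for RPLP1 and 19.7 for PLEKHA1. Among the called falls not shown, MARCHF6 had 17.3. The 5′ scores ran from 5.27 to 10.4 in the rises shown and from 5.44 to 10.8 in the falls. No test was made on this.

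The long introns ran from 1000 to 7371 nt with a median of 1607 nt (quartiles 1248 and 2331 nt). Their median GC content was 45.3%, lower than the 55.3% of retained introns of 150 nt to under 1000 nt and the 61.2% of those under 150 nt, and above the 40.8% of the 69131 introns of at least 1000 nt that flank cassette exons. Their median 5′ site score was 7.65 (7.19 and 7.38 in the shorter classes) against 8.37 for those flanking introns, and their median 3′ site score was 8.76 (6.93 and 6.22) against 10.3. The share of pyrimidines before the 3′ site had the same median, 64.9%, in every class. A TATCCTT motif at the 5′ site, which marks the minor spliceosome's introns, was found in 1 of the 535, against 0.0593% of the flanking introns. These are descriptions, without a test.

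Most of the long introns had other annotated exons within them. GENCODE listed 479 of the 535 as introns, of which 45 lay in 3′ UTRs, 14 in 5′ UTRs, 28 in noncoding transcripts and the rest in coding regions. The other 56 were not annotated as introns. In 404 the annotation held a transcript of the retained intron type across the whole span. An exon of the same gene lay inside 368, and only 141 held no other annotated exon on either strand. The last intron of a transcript made up 98 of them and the first 15.

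In whole cells with EGFP siRNA the median level was 24.6% (quartiles 4.21% and 77.5%, n = 518 with reads in both libraries), with 142 introns under 5% and 200 over 50%. The level went with the annotated place. Coding region introns had a median of 11.9% (n = 379), those of 3′ UTRs 90.7% (n = 44), and those not annotated as introns 92.8% (n = 54). The 134 introns with no other annotated exon inside had a median of 4.67%, the 384 with one 38.6%. How far reads of such exons make up the level was not tested. Length had next to no rank relation with the level over the 452 introns with a mean of at least 20 reads (Spearman rho -0.00122, Pearson r 0.0406), all from the same libraries.

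**Figure D1:**
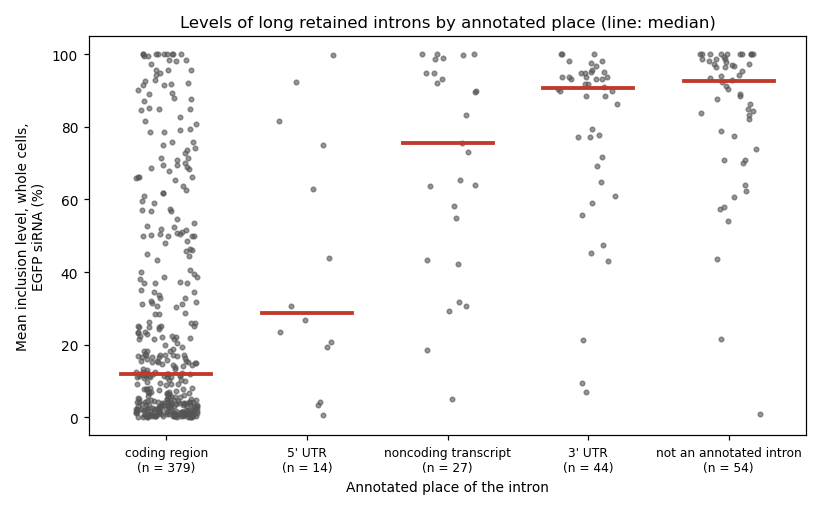
Mean inclusion level (%, y axis) of each long intron in whole cells with EGFP siRNA, 1 point per intron and 2 libraries per mean, by annotated place (x axis). The red line is the median: 11.9% for coding regions, 28.7% for 5′ UTRs, 75.6% for noncoding transcripts, 90.7% for 3′ UTRs and 92.8% for introns that are not annotated.

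The length limit cut through a continuous range. Just inside it, among introns with a mean of at least 20 reads, were UBE2D3 (1001 nt, levels of 1.06% and 0.661% with EGFP against 0.939% and 0.768% with CHERP siRNA), U2AF1L4 (1005 nt, 27.3% and 64.5% against 39.7% and 23.9%) and CARS2 (1010 nt, 18.2% and 11.6% against 5.39% and 5.41%). Just outside were NDUFAF7 (997 nt, 70.8% and 93.4% against 81.5% and 90.9%), LUC7L (996 nt, 90.0% and 79.0% against 93.4% and 94.6%) and SNHG17 (993 nt, 68.6% and 66.9% against 50.2% and 49.4%).

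After CHERP siRNA in whole cells, the introns called with increased inclusion included those of RSRP1, RBM25, CHTOP and RBM39, and those called with decreased inclusion included CAPRIN2, TMEM41B, YBX3 and SFT2D1. Of the 525 long introns, 25 passed an adjusted p of 0.05 in the quasi-binomial test of inclusion against skipping reads (4.76%, Wilson 95% interval 3.25% to 6.94%). Inclusion rose in 12 and fell in 13. Over all 3717 retained introns tested the share was 1.75%, with 0.619% higher and 1.13% lower. The share was 1.79% for 150 nt to under 1000 nt (36 of 2012) and 0.339% under 150 nt (4 of 1180). The long introns also had more reads, a median of 120 per library against 61.4 and 50.1, and the part of depth in these shares was not tested. The median difference over all long introns was -0.0322 percentage points.

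The largest rise among the called introns was in intron 3 of RSRP1, which codes for an arginine- and serine-rich protein (chr1:25570125-25571640, 1516 nt). Its level was 31.3% and 45.8% in the EGFP libraries and 71.6% and 65.1% in the CHERP libraries, a rise of 29.8 percentage points (adjusted p = 0.000502). Both CHERP libraries lay above both EGFP libraries, although the EGFP libraries differed among themselves. The read spread between libraries of a group was 8.35 times the binomial one, where the test used 4.02.

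RBM25, a splicing regulator that binds near 5′ sites, showed the tightest control values of the large rises. Intron 9 (chr14:73566459-73569899, 3441 nt) went from 15.1% and 15.7% to 30.6% and 39.2%, up 19.5 points (adjusted p = 3.99e-09). Intron 2 of RBM39, a splicing factor related to U2AF (chr20:34326940-34328745, 1806 nt), was at 11.2% and 16.4% and rose to 29.4% and 25.9% (13.9 points, adjusted p = 6.46e-09). RSRC2, another arginine- and serine-rich protein gene, rose in intron 3 (chr12:123003577-123005931, 2355 nt) from 11.4% and 13.3% to 20.4% and 23.5% (adjusted p = 0.00699). None of these groups of libraries overlapped, in introns picked by a test on the same libraries. In RBM39 the read spread between libraries of a group was 15.3 times the binomial one, where the test used 4.13.

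CHTOP, which takes part in mRNA export, rose in intron 2 (chr1:153609130-153610770, 1641 nt) from 13.6% and 17.6% to 32.1% and 33.2% (adjusted p = 7.25e-06). OGT, the enzyme that adds O-GlcNAc to nuclear and cytoplasmic proteins, had a higher base level. Its intron 4 (chrX:70764486-70767756, 3271 nt) was at 45.6% and 61.7% and reached 74.2% and 77.5%, with an adjusted p of 0.0493, just under the threshold. Intron 6 of CD46, a cell surface inhibitor of complement (chr1:207940541-207943665, 3125 nt), rose from 8.31% and 7.19% to 17.9% and 25.2% (adjusted p = 8.29e-07). In OGT the read spread between libraries of a group was 6.10 times the binomial one, where the test used 4.37. In CHTOP and CD46 it was below the value used.

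Intron 10 of SMYD2, a lysine methyltransferase gene (chr1:214505536-214507542, 2007 nt), rose from 4.10% and 4.66% to 16% and 9.87% (adjusted p = 7.93e-06), and intron 17 of CEP95, a centrosomal protein gene, from 5.35% and 4.03% to 10.2% and 9.53% (adjusted p = 0.0217). The read spread between libraries of a group was 7.22 times the binomial one in SMYD2, where the test used 3.66. In CEP95 it was below the value used. The other 3 rises started at levels near 1% or less. PLEKHA1, a phosphoinositide-binding protein gene, held the longest intron called (6230 nt) and went from 0.419% and 0.106% to 0.948% and 1.51% (adjusted p = 0.0242). STMN1, the gene of the microtubule regulator stathmin, went from 0.479% and 0.593% to 0.924% and 0.985% (adjusted p = 0.000328). Its inclusion reads were 409 and 665 with EGFP and 295 and 291 with CHERP siRNA. Its skipping reads were 5822 and 7633 against 2168 and 2004, so this rise in level came without more intron reads. RPLP1, a ribosomal stalk protein gene, moved least, from 0.935% and 1.18% to 1.23% and 1.62% (adjusted p = 0.0161), with a read spread between its own libraries of 27.1 times the binomial one where the test used 4.71.

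**Figure D2:**
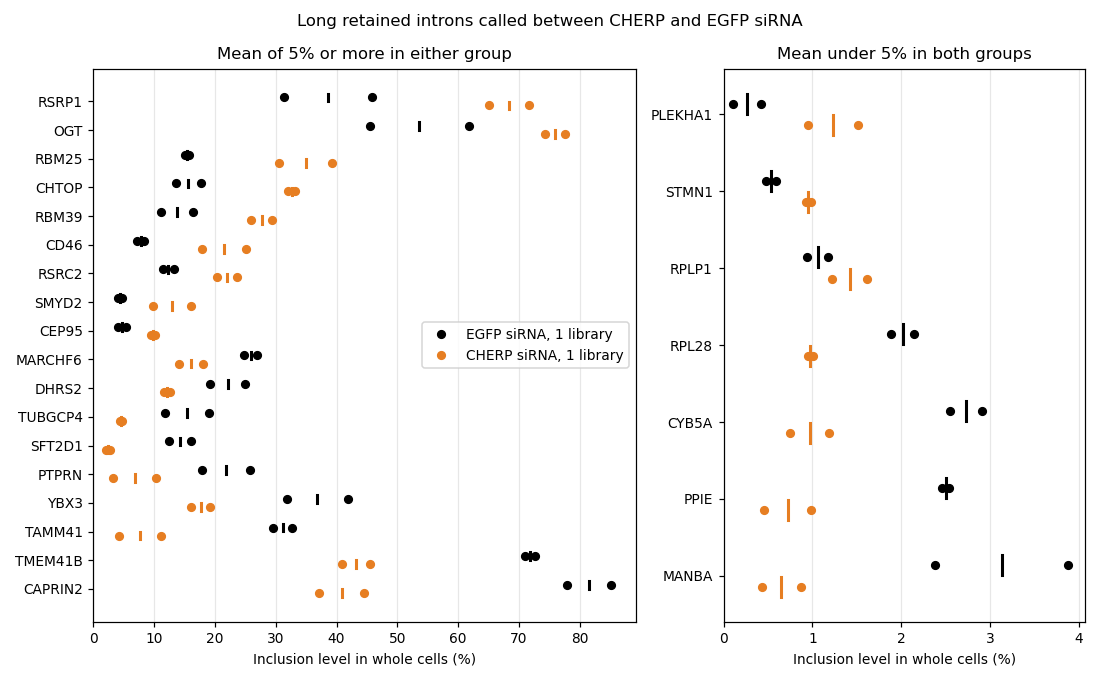
Inclusion levels (%, x axis) of the 25 long introns called in whole cells, 1 row per host gene (y axis), with 2 libraries (points) and their mean (bar) for EGFP siRNA (black) and CHERP siRNA (orange). The left panel holds introns with a mean of 5% or more in either group and the right panel those under 5% in both. The groups of libraries do not overlap in any of the 25 rows, which were picked by a test on these same libraries. Among introns with reads in every library, 40.7% of the long ones and 37.2% of all did not overlap.

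The largest fall among the called introns was in CAPRIN2, which codes for an RNA-binding protein. In the intron of 1363 nt (chr12:30868079-30869441) the level went from 85.1% and 78.0% to 37.1% and 44.5%. That drop of 40.7 points (adjusted p = 0.0428) rested on 4 and 8 skipping reads with EGFP against 27 and 25 with CHERP siRNA. A second form of this intron, with a 3′ site 3 nt away and the same body reads (1366 nt), was at 49.8% and 63.8% against 28.5% and 47.7% and was not called (adjusted p = 0.543).

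TMEM41B, an endoplasmic reticulum lipid scramblase gene, fell in the only 3′ UTR intron among those called (chr11:9302589-9304917, 2329 nt), from 72.6% and 71.0% to 45.6% and 40.9% (adjusted p = 0.00421). Its inclusion reads were 821 and 1429 with EGFP and 934 and 1447 with CHERP siRNA, and its skipping reads 18 and 34 against 65 and 122. TAMM41, whose product acts in mitochondrial cardiolipin synthesis, fell in intron 6 (chr3:11849370-11850990, 1621 nt) from 29.5% and 32.7% to 11.1% and 4.20% (adjusted p = 0.000239). YBX3, a cold shock domain protein gene, fell in intron 5 (chr12:10862714-10865809, 3096 nt) from 31.8% and 41.9% to 16.1% and 19.2% (adjusted p = 1.06e-06). Its 2 other long introns, which share a 3′ site with each other, were not called (adjusted p = 0.632 and 0.918). The read spread between libraries of a group was 6.81 times the binomial one in the YBX3 intron called, where the test used 4.15. In TAMM41 it was 6.04 where the test used 3.23, and in TMEM41B it was below the value used.

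In membrane and secretory genes, PTPRN, a secretory granule protein, fell in intron 18 (chr2:220159864-220160947, 1084 nt) from 17.9% and 25.8% to 10.4% and 3.29% (adjusted p = 0.00373). SFT2D1, a gene of vesicle transport, had the lowest adjusted p of all long introns (1.22e-21). Its intron 6 (chr6:166736375-166738024, 1650 nt) went from 12.4% and 16.1% to 1.99% and 2.67%. MARCHF6, an endoplasmic reticulum ubiquitin ligase gene, went from 24.8% and 26.9% to 14% and 18.1% (adjusted p = 0.0214). In PTPRN the read spread between libraries of a group was 12.4 times the binomial one, where the test used 3.28.

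DHRS2, a short-chain dehydrogenase gene, fell from 19.2% and 25% to 11.6% and 12.6% (adjusted p = 1.56e-19), with an own dispersion of 23.2 where the test used 4.62. A form of it with the same 5′ site and a nearer 3′ site (1770 nt) was at 30.1% and 28.4% against 34.6% and 45.4% and was not called (adjusted p = 0.456). TUBGCP4, a gamma-tubulin complex gene, fell from 11.8% and 19% to 4.37% and 4.77% (adjusted p = 0.0317). In the remaining 4 the level was below 4% throughout. MANBA, a lysosomal mannosidase gene, fell from 2.38% and 3.88% to 0.868% and 0.430% (4110 nt, adjusted p = 0.0251). CYB5A, the cytochrome b5 gene, fell from 2.91% and 2.54% to 0.751% and 1.19% (5139 nt, adjusted p = 0.00645). PPIE, a cyclophilin of the spliceosome, fell from 2.54% and 2.46% to 0.456% and 0.988% (adjusted p = 0.00625). RPL28, a large ribosomal subunit protein gene, fell from 2.14% and 1.89% to 1.00% and 0.951% (adjusted p = 2.91e-10). The 3 longest introns called, in PLEKHA1, CYB5A and MANBA, were thus all of low level.

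Large differences were more common than calls. Of 452 long introns with a mean of at least 20 reads, 103 differed by 10 points or more (47 higher, 56 lower) and 14 of these were called. The 14 had a median of 903 reads per library and the others 102. Counting only whether the 2 groups of libraries overlapped, 107 long introns were higher and 100 lower without overlap, 40.7% of the 509 with reads in every library, where the share over all retained introns was 37.2%. The 2 against 2 design cannot reach a two-sided permutation p below 0.333 for a single intron, so each call rests on the spread pooled over introns. That pooled spread decides the calls. With each dispersion floored after moderation rather than before it, no long intron was called (81 at an unadjusted p under 0.05), and with limma on the log2 odds none was either (43 at an unadjusted p under 0.05). The later floor with a trend fitted only to events whose rarer form reached 10 reads called 30 (14 higher, 16 lower), among them 24 of the 25. The order used here was set after these counts had been seen. Leaving out any 1 library brought the 25 calls down to between 5 and 7, always with DHRS2, RPL28 and SFT2D1.

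**Figure D3:**
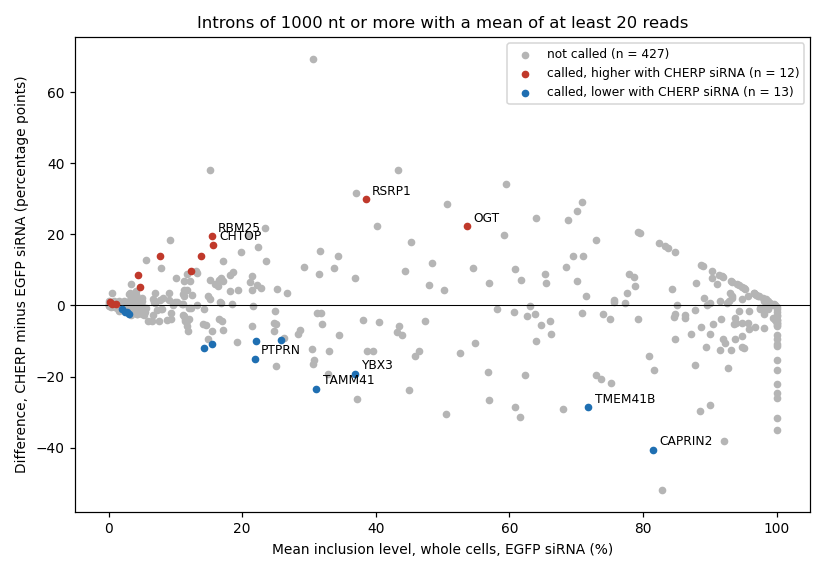
Difference in inclusion level after CHERP siRNA in whole cells (percentage points, y axis) against the mean level with EGFP siRNA (%, x axis) for the 452 long introns with a mean of at least 20 reads, 1 point per intron. The 12 called higher (red) and 13 called lower (blue) lie among those not called (grey), some of which differ by more.

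Exons inside the called introns were measured too, as skipped exon events with the same flanking splice sites. Over all 63977 exon events tested, 1.05% were called. In CD46 a 45-nt exon (chr1:207941124-207941168) was included at 44.6% and 40.7% in the EGFP libraries against 68.5% and 66.7%, a rise of 24.9 points (adjusted p = 4.58e-06). In an event of this exon with other flanking sites it was at 61.9% and 75.6% against 74.9% and 54.8% (adjusted p = 0.763). In RBM39 a 155-nt exon (chr20:34327315-34327469) rose from 3.92% and 4.57% to 12.5% and 9.81% (adjusted p = 0.00259), and a 73-nt exon was at 16.4% and 27.8% against 34.9% and 28.7% (adjusted p = 0.075). A 45-nt exon in the RSRP1 intron was at 7.31% and 11.1% against 27.6% and 19.2% and was not called (adjusted p = 0.463). Neither were the 78-nt exon of RSRC2 and the 24-nt exon of CYB5A (adjusted p = 0.761 for each). The reads of these exons count toward the levels of their introns, and their part in the rises was not tested. Of the 139 long introns tested that held no other annotated exon, 6 were called: SMYD2, CEP95, PLEKHA1, STMN1 and RPLP1 higher and PTPRN lower.

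The list of RNA processing genes, which was drawn up with earlier results of these data known, had 155 genes, and 31 of them held 40 long introns. It counts OGT. It leaves out PPIE, CAPRIN2 and YBX3, which had introns called lower, and CHTOP, which had an intron called higher. In whole cells 39 introns of the list were tested and 5 rose (RSRP1, RBM25, RBM39, RSRC2 and OGT), none fell and 34 were not called. This split depends on which genes were listed. Of all 525 long introns tested 12 were called higher, these 5 among them. Over retained introns of every length the share called higher was 0.619%. Called or not, 27 were higher and 12 lower. The median difference was 3.42 points, against -0.0322 for all long introns. In the cytoplasm, of 19 tested, 5 were higher and 14 lower, with a median of -0.864 points against -0.479 for all long introns, and 1 was called, SRSF5, which fell. The introns of the list that were not called in whole cells include that of SRSF5, with a difference of -4.56 points (adjusted p = 0.608), and that of DDX17, an RNA helicase gene (33.2% and 34.3% with EGFP, 41.3% and 47.3% with CHERP siRNA, adjusted p = 0.122). EWSR1 had a pair of overlapping forms at 53.1% to 62.2% with EGFP and 64.4% to 71.7% with CHERP siRNA (adjusted p = 0.608 and 0.711).

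The genes of the CLK kinases, which phosphorylate SR proteins and are a known case of detained introns, held 4 long introns, none of them called. In CLK1 the level was 37.6% and 36.2% with EGFP against 42.6% and 46.4% with CHERP siRNA (adjusted p = 0.918). In CLK4 the 1121-nt form was at 6.50% and 4.65% against 18.5% and 18% (adjusted p = 0.276), and the 1607-nt form, which overlaps it, was at 28.6% and 10.2% against 21.5% and 25.7%. CLK3 was at 7.31% and 12.5% against 11.9% and 9.69%. Of the cell division and DNA repair list (82 genes) 3 long introns were tested and none was called, and the calcium and membrane traffic list (38 genes) held none.

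The level of each host gene was taken from its cassette exon and alternative splice site events, not from its retained intron events. Exon events inside a long intron were kept, as in RSRP1, CD46, RSRC2, CYB5A and RBM39. Their skipping reads can be those that cross the intron's own splice sites, and the part of such shared reads was not tested. Of the 468 host genes 407 could be tested in whole cells and 102 changed, 52 higher and 50 lower, where 27% of all genes tested were called. In the cytoplasm 125 of 321 changed (62 higher, 63 lower), where the share of all genes was 39%. Scaled by library totals, the cytoplasmic split was 49 higher and 77 lower. Without the first or the second whole-cell CHERP library the whole-cell count was 15 or 19, and without 1 library the cytoplasmic count was 56 to 75. Fewer cells with a transcript and less of it per cell cannot be told apart in such bulk RNA.

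Among the genes of the 12 introns that rose, 10 were lower in whole cells and 2 higher, and 6 of the falls and 1 rise passed the test. The falls were in STMN1 (log2 fold change -1.69 ± 0.14, SE, adjusted p = 0.00794), PLEKHA1 (-1.02), CEP95, CHTOP (-0.90), RSRC2 (-0.82) and RBM25 (-0.69). The rise was in OGT (0.79 ± 0.15, adjusted p = 0.0244). In the cytoplasm all 11 that could be tested were lower, and 9 passed. CEP95 fell there by 1.66 on the log2 scale, RSRC2 by 0.98, RSRP1 by 0.87, RBM25 by 0.85, RBM39 by 0.68 and OGT by 0.52. RSRP1 and OGT were thus lower in the cytoplasm, while the whole-cell value was 0.79 for OGT and 0.28 for RSRP1, the latter not called (adjusted p = 0.368).

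Among the genes of the 13 introns that fell, 12 were higher in whole cells and 1 lower, and 6 passed the test, all higher. SFT2D1 rose most, by 2.10 ± 0.13 on the log2 scale (adjusted p = 0.00794), followed by YBX3 (1.27), TAMM41 (1.21), PTPRN, CYB5A (1.16) and TUBGCP4 (0.99). In the cytoplasm 6 rose, with SFT2D1 at 2.07, YBX3 at 1.52 and RPL28 at 0.40, and CAPRIN2 fell (-0.60, adjusted p = 0.0158). In all 2 of the 13 were lower there, and 4 under scaling by library totals. DHRS2 and MARCHF6 were not called in either fraction.

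Across all long introns with a mean of at least 20 reads the relation was weak. The change in log2 odds of inclusion and the host gene's log2 fold change had a Spearman rho of -0.17 (Pearson r -0.16) over 426 introns in whole cells, and -0.24 (r -0.23) over 356 introns against the cytoplasmic fold change. Both measures of the whole-cell comparison come from the same libraries, and introns of 1 gene share a host value. Exon events inside a long intron can also bring the same junction reads into both measures. These coefficients are descriptions.

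**Figure D4:**
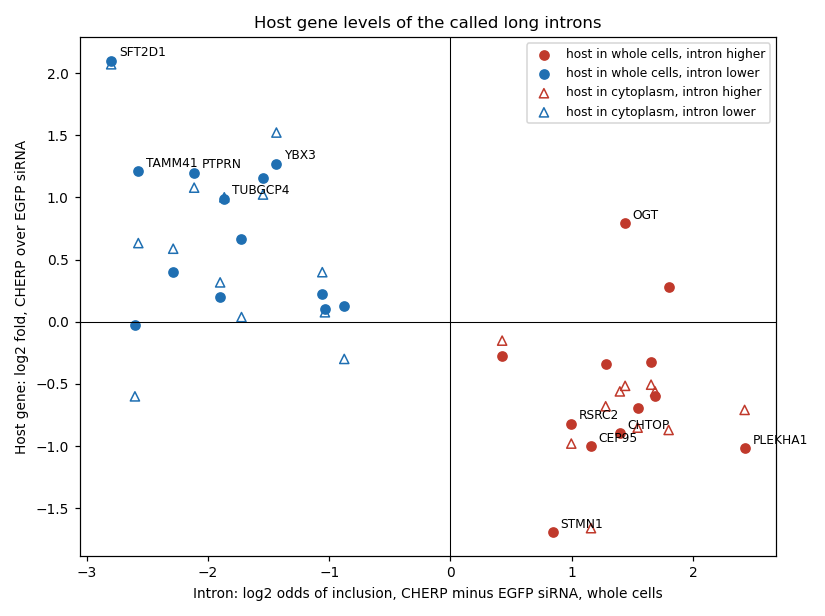
Host gene log2 fold change, CHERP over EGFP siRNA (y axis), against the change of the intron in log2 odds of inclusion in whole cells (x axis), for the 25 long introns called. Filled circles are host levels in whole cells and open triangles in the cytoplasm. Introns that rose (red) have hosts below 0 except OGT and RSRP1 in whole cells, and those that fell (blue) have hosts above 0 except CAPRIN2 in both fractions and MARCHF6 in the cytoplasm.

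In the cytoplasm, 3 of the 233 long introns were called after CHERP siRNA and all 3 fell, where 0.295% of all 1696 cytoplasmic events were called. RPL28 (chr19:55898062-55899297, 1236 nt) went from 2.03% and 2.20% to 0.563% and 0.809% (adjusted p = 1.57e-21). DHRS2 (chr14:24109105-24112360, 3256 nt) went from 13.3% and 13.9% to 5.39% and 5.18% (adjusted p = 2.29e-09). SRSF5, the gene of an SR protein, fell in intron 5 (chr14:70235969-70237183, 1215 nt) from 12.5% and 10.0% to 4.94% and 4.55% (adjusted p = 1.3e-05), while in whole cells it was at 40.7% and 40.2% against 34.7% and 37% (adjusted p = 0.608). RPL28 and DHRS2 were also called in whole cells, in the same direction. With limma on the log2 odds or the later floor none was called (28 and 23 at an unadjusted p under 0.05), and leaving out 1 library kept 1 or 2. The median difference over the long introns was -0.479 points, against -0.287 points for all cytoplasmic events. Without overlap between the groups of libraries 20 long introns were higher and 74 lower, 43.7% of 215, where the share over all events was 34.4%.

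Of the 12 introns that rose in whole cells, 8 had a cytoplasmic event, 5 of them with a higher mean level after CHERP siRNA and none called. CHTOP was at 7.89% and 8.55% against 15.5% and 14.3% (adjusted p = 0.249) and OGT at 19.4% and 32.1% against 39.6% and 39.7% (adjusted p = 0.893). The RBM25 intron stayed low in every cytoplasmic library, at 2.38% and 2.11% against 2.80% and 3.92% (adjusted p = 0.893), as did the CD46 intron at 1.08% and 0.516% against 0.611% and 1.5%. SMYD2 was at 2.00% and 2.40% against 1.42% and 1.72%. Over the 134 long introns that reached the read minimum in both tables, the whole-cell and cytoplasmic changes in log2 odds had a Spearman rho of 0.29 (Pearson r 0.27).

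Whether the effect of CHERP siRNA differed between the fractions was tested as an interaction on the 223 long introns present in both tables. None was called, nor was any of all 1599 events (0%). At an unadjusted p under 0.05 there were 15 of the 223, where 62 of all 1599 events were. All 15 had a lower log2 odds change in the cytoplasm than in whole cells. With limma none was called either (17 at an unadjusted p under 0.05). The lowest adjusted p was 0.0749, for SMYD2, with a change of 1.65 on the log2 odds scale in whole cells and -0.49 in the cytoplasm, and for SRSF5, with -0.28 and -1.34. Over the 223 introns 155 had the lower change in the cytoplasm, with a median difference of -0.66, and over all events 950 of 1599 did, with a median of -0.33.

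Long introns were included less in the cytoplasm than in whole cells. With EGFP siRNA 64 of 223 differed between the fractions (28.7%), 61 of them higher in whole cells and 3 lower, where 19% of all 1599 events were called. With CHERP siRNA 90 differed, 88 higher and 2 lower, where the share of all events was 24.7%. Of the 64, 54 were also called with CHERP siRNA (84.4% of the 64 and 60% of the 90). For the medians, 187 introns had a mean of at least 20 reads over the EGFP libraries of both fractions together. Their median level with EGFP siRNA was 17.2% in whole cells and 4.33% in the cytoplasm, and 163 were higher in whole cells. The deeper whole-cell libraries can carry an intron past that minimum. In the cytoplasmic libraries alone 139 long introns reached a mean of 20 reads, so some cytoplasmic levels rest on few reads. The libraries of the fractions did not overlap in 73.5% of 219 long introns with EGFP siRNA, where the share over all events was 60.7%, and in 69.8% of 212 with CHERP siRNA, where it was 62.9%. The tables of the fractions differ in effective length (144 nt and 73 nt of junction window), which the fit took in as an offset, so the comparison leans on these lengths. The tables were also made separately. Leaving out 1 library brought the 64 calls to between 6 and 36 and the 90 to between 19 and 51, and the later floor left 4 and 14.

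The widest gap among the called introns was in VAMP1, the gene of a vesicle fusion protein (chr12:6572009-6574055, 2047 nt). Its last intron was at 83.4% and 94.7% in whole cells and had no inclusion read in either cytoplasmic EGFP library (adjusted p = 0.00198). Those libraries held only 3 and 1 reads of it, all skipping, so it passed the read minimum through the whole-cell libraries and its cytoplasmic level is hardly measured. UFD1, a ubiquitin-dependent degradation factor gene, was at 98.4% and 97.8% against 29.8% and 32.7% in its last intron (4057 nt, adjusted p = 0.0417), with 2 skipping reads in each cytoplasmic library. RPP21, a gene of a ribonuclease P subunit, was at 71.0% and 75% against 16.1% and 23.7% (adjusted p = 0.00156). ACAD8, a mitochondrial acyl-CoA dehydrogenase gene, was at 54.5% and 59.4% against 11.1% and 3.43% (adjusted p = 0.000284), and FNBP1L, a membrane-bending protein gene, at 64.2% and 68.2% against 22.4% and 29.2% in its last intron (adjusted p = 0.0023). In none of these, which were picked for the widest gaps, did the libraries of the fractions overlap. After CHERP siRNA, UFD1 (97.4% and 86.3% against 33.9% and 41.4%, adjusted p = 0.157) and RPP21 (64.3% and 42.3% against 20.9% and 24.4%, adjusted p = 0.0598) were not called.

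Of the introns described above, that of RBM25 was about 15% included in whole cells and about 2% in the cytoplasm with EGFP siRNA (adjusted p = 2.31e-17), and the gap was called again after CHERP siRNA (adjusted p = 2.55e-15). MARCHF6 stood at 24.8% and 26.9% in whole cells and 2.19% and 1.54% in the cytoplasm (adjusted p = 9.53e-19). SRSF5 was lower in the cytoplasm with either siRNA (adjusted p = 5.52e-19 and 3.03e-50). RPL28 was an exception with EGFP siRNA, at 2.14% and 1.89% in whole cells and 2.03% and 2.20% in the cytoplasm (adjusted p = 0.826).

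The opposite direction was seen in HNRNPH3, an hnRNP gene, whose intron of 1169 nt (chr10:70097091-70098259) was at 18.3% and 18.6% in whole cells and 64.3% and 44.2% in the cytoplasm (adjusted p = 1.29e-05), and after CHERP siRNA at 19.2% and 18.3% against 68.0% and 54.6% (adjusted p = 1.36e-10). CHCHD7 had an intron of 2760 nt in its 5′ UTR at 4.53% and 2.38% against 28.5% and 41.3% (adjusted p = 2.89e-07). Its cytoplasmic EGFP libraries held 4 and 3 skipping reads, and those of HNRNPH3 held 8 and 19. In CHCHD7 the read spread between libraries of a group was 6.07 times the binomial one, where the test used 3.03. The introns of HNRNPH3 and CHCHD7 both hold other annotated exons, and the part of these was not tested. Place in the transcript went with the level in both fractions. The 146 coding region introns with enough reads over both fractions together had medians of 11.8% and 2.42%, and the 17 in 3′ UTRs 90.0% and 77.1%.

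**Figure D5:**
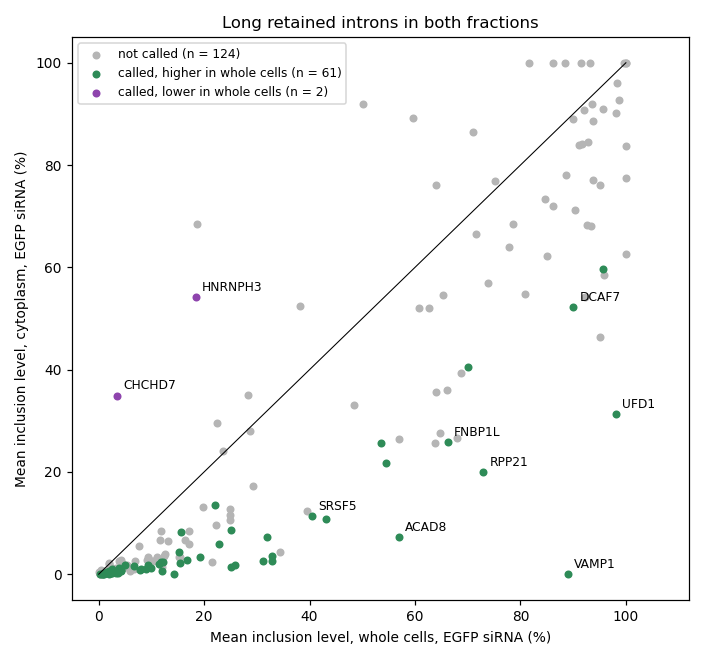
Mean inclusion level in the cytoplasm (%, y axis) against whole cells (%, x axis) with EGFP siRNA for the 187 long introns with a mean of at least 20 reads over both fractions, 1 point per intron and 2 libraries per mean. The line marks equal levels. The 61 introns called higher in whole cells (green) lie below it, and 2 called lower (purple), HNRNPH3 and CHCHD7, lie above.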

How the data were processed

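Per the deposited tables, the authors mapped reads with STAR 2.5.2b to hg19 and counted splicing events with rMATS (its version is not given in the sources used here). Each cell holds the whole read counts of the inclusion or skipping form for 2 libraries, without replicate numbers, beside effective lengths. Their p-values, inclusion levels (40 columns) and gene fold changes were not used.

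Reads over effective length gave inclusion levels. The quasi-binomial test ran in R 4.3.3 on all retained intron rows with reads in both groups, with Benjamini-Hochberg adjustment over them. Pearson dispersion was floored at 1 and moderated with limma 3.58.1 (squeezeVar, trend on mean reads). The moderation gave the pooled trend (2.92 to 5.33 in whole cells) full weight. The order of floor and moderation was not fixed beforehand: flooring first was chosen after flooring afterwards had given no calls on the long introns. Host genes averaging 20 reads or more were tested with limma on log2(value + 0.01), the value being reads per effective nucleotide after median-ratio scaling. Scripts were tested on simulated data. Annotation was GENCODE 44 lifted to GRCh37.

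Named in full were introns with adjusted p under 0.05 and at least 20 reads: the 12 largest rises and falls in whole cells and the 5 largest in each direction elsewhere, the 3 longest called, those nearest 1000 nt, and those of RSRP1 and CLK genes. RPL28 comes in by the cytoplasmic comparison, and DDX17, EWSR1 and the whole-cell value of SRSF5 were picked from the RNA processing list after their values were seen. Members and lists were chosen with earlier results of these data known. The study describes the libraries of a group as biological replicates. Intervals cover counting error only.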

Additional observations from a re-analysis of the deposited data

How the results depend on the processing

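No paired analysis was possible because the table cells carry no replicate number. The 25 whole-cell calls became 0 with limma on the log2 odds, 0 with the dispersion floor after moderation (chosen after seeing the data), 6 over introns with no other exon inside, 14 with a difference of at least 0.1 and 10 reads also required, and 5 to 7 without any 1 library. The 3 cytoplasmic calls became 0 under each of the first 4 of these settings, 6 with a mean of at least 10 reads, 17 with the later floor and a trend from rows with 10 reads of the rarer form (also added; 30 in whole cells), and 1 to 2 without any 1 library. Between the fractions, the 64 calls with EGFP siRNA became 40 with limma, 4 with the later floor and 6 to 36 without 1 library. The 90 with CHERP siRNA became 14 with the later floor and 19 to 51 without 1 library. The interaction gave 0 to 2 calls without 1 library. The 102 whole-cell and 125 cytoplasmic host genes became 63 and 59 with no filter on reads, and 15 to 107 and 56 to 75 without 1 library. With 1 library left out the median dispersion used rose from 3.19 to between 5.75 and 6.4 in whole cells, and the cause was not tested. The lone library of a group is then assumed to vary like the others. No named difference changed direction: under the alternatives 133 of its values stayed on the same side of the threshold and 173 lost the call. Taking 1 event per intron changed no count, as each intron had 1 row in a table. The median long intron had 28.3 reads per cytoplasmic library and 120 per whole-cell library, and the part of depth in the counts was not tested.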
